A study of Homo sapiens with 15 samples.

Results

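The replication-dependent histone genes code for the bulk of the protein around which DNA is wound, namely the core histones H2A, H2B, H3 and H4 and the linker histone H1. They lie in clusters named HIST1, HIST2, HIST3 and HIST4, and were taken here as every gene of the deposited tables whose name begins with one of these cluster names followed by H. The rule found 59 genes among the 18179 of the 2 tables, 46 of them in HIST1 on chromosome 6, 9 in HIST2 and 3 in HIST3 on chromosome 1, and 1 in HIST4 on chromosome 12. By type they were 6 H1, 14 H2A, 19 H2B, 11 H3 and 9 H4 genes. Of these, 55 are annotated as protein coding and 4 as transcribed unprocessed pseudogenes. Gene names are those of the files, which are older than the current RefSeq symbols.

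Cells make most of these mRNAs only while they copy their DNA. The genes are driven by NPAT, a coactivator switched on by cyclin E and CDK2, and their mRNAs are the only metazoan mRNAs that normally end without a poly(A) tail. They end instead just after a short stem-loop, which is bound by the stem-loop binding protein SLBP and cut with the help of U7 snRNP, and they are degraded when DNA synthesis stops. Several of the genes can also give longer, polyadenylated mRNAs when the stem-loop end is passed over, for example in cells that leave the cycle. Replacement histones such as H3.3 and H2A.Z come from other genes, with ordinary polyadenylated mRNAs, and are made outside S phase too.

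RNA was sequenced from HaCaT cells, an immortal line of human skin keratinocytes, in 5 groups of 3 libraries. The cells had been given Ag2S nanoparticles (NPs) at 160 or 320 µg/mL or Li-doped Ag2S NPs at 160 or 320 µg/mL for 24 h, or were untreated (control). All groups are 1 cell line, the labels name no irradiation, and nothing says that the libraries came from separate cultures, so p-values measure the spread between these libraries. Levels are FPKM, fragments scaled by transcript length and by the fragments of the library, as the authors deposited them, without counts, so the depth is unknown. Differences are log2 fold changes on log2(FPKM + 0.1), and a gene is called changed at a limma adjusted p under 0.05 over the genes whose mean FPKM was 1 or more.

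One form of the stem-loop was present in 30 of the 59 genes, in any annotated GENCODE 29 transcript of theirs. Among 19684 protein-coding genes, searched in protein-coding transcripts only, 50 (0.25%) had it. These 50 include protein-coding members, so they are not a separate group. The sequences are shown because they are the feature that sets these mRNAs apart. The capitals mark the 16 bases of the stem-loop, and the lower case letters the bases on either side, 5′ to 3′, as DNA. The 30 genes held 6 versions, of which the first below was found in 14 genes, the second in 5 H4 genes, the third in 5, the fourth in 3, the fifth in 2 H4 genes and the last in HIST1H3E alone.
HIST2H2BE: tccaaaGGCTCTTTTCAGAGCCacccac
HIST1H4H: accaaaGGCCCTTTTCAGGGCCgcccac
HIST1H2BD: cccaaaGGCTCTTTTAAGAGCCacgcat
HIST1H2AG: accaacGGCTCTTTTCAGGGCCacccac
HIST2H4A: cccaaaGGCCCTTTTTAGGGCCgaccac
HIST1H3E: tccaaaGGCTCTTCTCAGAGCCaacca

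In HIST1H2BK and HIST1H1C the annotated models were 381 and 642 bases long and held no stem-loop. A gene without a match may have an annotated model that stops before its stem-loop, so the 29 genes without one are not shown to lack it. Of the 30 genes with a stem-loop, many also had models that ran on past it, such as HIST2H2BE with a model of 2194 bases and HIST1H2AG with one of 2250 bases.

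The region before the start sites was compared next, because histone genes are known for shared promoter motifs. RefSeq promoters, 250 bases before and 50 after the start on GRCh38.p14, were found for 49 of the 59 genes. Searched on both strands, CCAAT was in 42 of 49, against 34.61% of all 35116 promoters of the same length, and TATAAA was in 30 of 49, against 11.53%. The octamer ATTTGCAT, known as the site of OCT1 (POU2F1) in H2B promoters, was in 12 of 16 H2B and 8 of 11 H2A promoters but in 1 of 8 H3 promoters and none of the 6 H1 or 8 H4 promoters, against 1.77% of all. AAACACA, the motif known for H1 promoters, was in 6 of 6 H1 promoters, against 5.64% of all. CCAAT was in 1 of 8 H4 promoters and in all 41 of the other types. A match is a run of letters and was not tested as a binding site.

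The promoters of HIST1H2BK (RefSeq symbol H2BC12, chr6:27146809-27147108, minus strand), HIST1H1C (H1-2, chr6:26056421-26056720, minus strand) and HIST1H4H (H4C8, chr6:26285485-26285784, minus strand) are shown as the most abundant H2B, H1 and H4 gene. Capitals mark these 4 motifs on either strand, and overlapping matches run together.
HIST1H2BK: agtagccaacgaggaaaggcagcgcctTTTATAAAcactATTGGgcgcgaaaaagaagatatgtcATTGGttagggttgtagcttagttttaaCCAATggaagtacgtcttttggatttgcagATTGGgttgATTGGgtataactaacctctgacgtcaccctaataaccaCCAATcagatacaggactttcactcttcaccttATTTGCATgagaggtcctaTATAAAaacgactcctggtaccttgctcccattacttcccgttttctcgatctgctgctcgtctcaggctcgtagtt
HIST1H1C: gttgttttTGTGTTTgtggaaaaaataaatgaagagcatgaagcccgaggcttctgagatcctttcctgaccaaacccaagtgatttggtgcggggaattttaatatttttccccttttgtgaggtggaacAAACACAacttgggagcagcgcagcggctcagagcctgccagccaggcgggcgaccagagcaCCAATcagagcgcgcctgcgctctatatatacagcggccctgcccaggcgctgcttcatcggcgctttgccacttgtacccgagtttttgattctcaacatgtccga
HIST1H4H: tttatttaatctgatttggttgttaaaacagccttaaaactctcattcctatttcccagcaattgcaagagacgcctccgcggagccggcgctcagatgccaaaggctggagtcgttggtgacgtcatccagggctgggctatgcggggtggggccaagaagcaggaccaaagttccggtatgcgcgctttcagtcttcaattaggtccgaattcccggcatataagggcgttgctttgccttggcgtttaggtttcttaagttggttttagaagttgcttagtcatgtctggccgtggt

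The 3 differ in the motifs they hold. The HIST1H2BK promoter has CCAAT as well as TATAAA and the octamer, the HIST1H1C promoter has CCAAT and AAACACA, and the HIST1H4H promoter has none of the 4 within this window.

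Summed over the 59 genes, FPKM was 389 ± 27.8 with Ag2S NPs at 160 µg/mL, 214 ± 17.1 with Ag2S NPs at 320 µg/mL, 148 ± 3.98 with Li-doped Ag2S NPs at 160 µg/mL and 306 ± 33.6 with Li-doped Ag2S NPs at 320 µg/mL, against 717 ± 14.3 in control (SD, n = 3 each). These sums were 54.3%, 29.9%, 20.6% and 42.7% of the control sum. In bulk RNA, fewer cells that express a gene and less of its mRNA per cell cannot be told apart. No library of any treated group reached the lowest control library, with 411 FPKM in the highest treated and 702 FPKM in the lowest control library. The sum was lower at 320 than at 160 µg/mL with Ag2S NPs and higher at 320 than at 160 µg/mL with Li-doped Ag2S NPs. Sums were not tested, and a few genes carry them: HIST1H2BK made up 20.25% of the control sum, the 3 most abundant genes 46.5% and the 6 most abundant 71.4%.

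**Figure D1:**
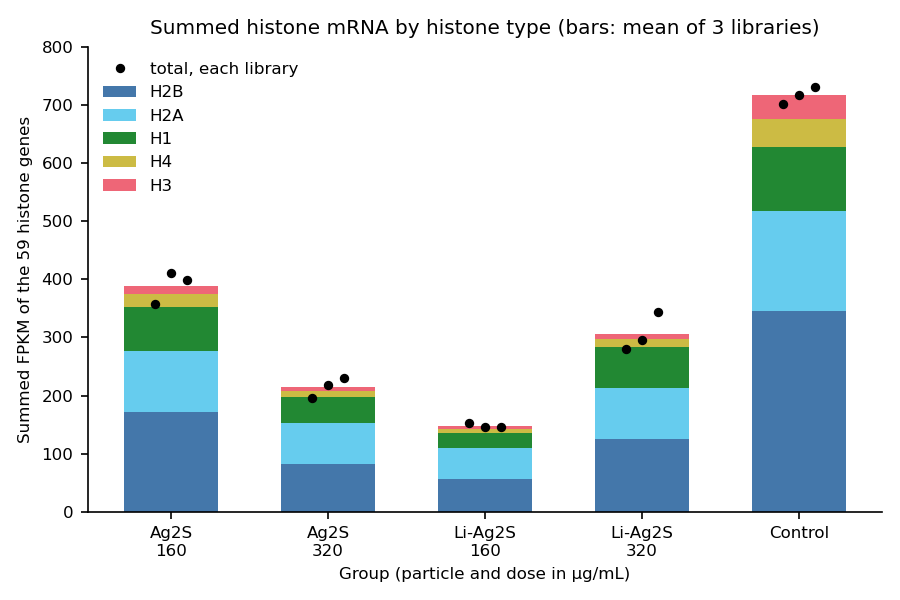
Summed FPKM of the 59 histone genes (y axis) in the 5 groups (x axis), with the mean of 3 libraries split by histone type in the bars and the total of each library as a point. Li-doped Ag2S NPs at 160 µg/mL had the lowest sum, 148 FPKM, and control the highest, 717 FPKM.

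Every histone type was below control in every treated group. H3 was lowest as a sum, at 34.3% and 15.4% of control with Ag2S NPs at 160 and 320 µg/mL and 12.6% and 21.5% with Li-doped Ag2S NPs at 160 and 320 µg/mL. H2B was at 49.8%, 23.7%, 16.3% and 36.3% of control in the same 4 groups, and H4 at 47.6%, 23.9%, 16.8% and 30.3%. H2A was at 61.2%, 40.8%, 31% and 50.7%, and H1 at 68%, 40.6%, 22.9% and 63.6%. These sums rest on few genes. In control HIST1H1C held 108.6 of the 110.8 FPKM of H1. HIST3H2A, whose changes were small as described below, held 47.6 of the 171.3 FPKM of H2A. A difference between types was not tested.

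On chromosome 6 the 46 HIST1 genes lay in 3 groups on GRCh38, holding 27, 5 and 14 members. As a sum, the first group (chr6:26017085-26285638) was at 55.8%, 28.2%, 17.3% and 43.1% of control with Ag2S NPs at 160 and 320 µg/mL and Li-doped Ag2S NPs at 160 and 320 µg/mL. The second (chr6:27125897-27147515) was at 53.0%, 24.9%, 19.7% and 42.5%. The third (chr6:27807444-27893843) was at 45.3%, 25.8%, 16.7% and 26.3%, so with Li-doped Ag2S NPs at 320 µg/mL it was further below control than the others. HIST1H3H, described below, is the most abundant gene of the third group.

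Of the 59 genes, 31 had a mean FPKM of 1 or more in the 9 libraries that make up each dose, 30 at both doses and 32 at either, and 28 did so over all 15 libraries. The others had means below 1 FPKM, and 9 genes were at 0 in 10 or more libraries, and 209 of the 867 values were 0. HIST2H2BA, HIST1H1A and HIST1H4D were listed only in the table of the 160 µg/mL groups. Just outside the threshold at 160 µg/mL were HIST1H3B at 0.93, HIST1H4C at 0.89 and HIST1H1D at 0.86 mean FPKM, and just inside were HIST1H2BO at 1.05, HIST1H4E at 1.23 and HIST2H2BD at 1.27. At 320 µg/mL HIST2H2AC at 0.97, HIST1H2APS4 at 0.97 and HIST1H2BO at 0.87 were outside, and HIST1H3B at 1.01, HIST1H2BN at 1.07 and HIST2H2BD at 1.23 inside.

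The threshold is a mean that includes control, the highest group, so a gene can pass it through control alone, and such a gene had to be lower in the others. At 160 µg/mL 2 of the 31 genes, HIST1H4E and HIST2H2BD, were at 1 FPKM or more in control only. At 320 µg/mL 8 were, namely HIST1H2AK, HIST1H2BF, HIST1H2BH, HIST1H2BN, HIST1H3B, HIST1H3G, HIST1H4E and HIST2H2BD. Over the treated libraries alone, 21 genes had a mean of 1 FPKM or more at 160 µg/mL and 21 at 320 µg/mL. The rest passed only with control in the mean. Beside the genes just named, these were HIST1H2AI, HIST1H2AK, HIST1H2BF, HIST1H2BH, HIST1H2BN, HIST1H2BO, HIST1H3G and HIST4H4 at 160 µg/mL. At 320 µg/mL they were HIST1H2AI and HIST2H2AA4. Values given below for all of these genes at the dose named describe them and are no support for a fall. The genes at 1 FPKM or more in each of the 3 groups numbered 17 at 160 µg/mL and 19 at 320 µg/mL. The counts that follow describe the genes that passed and are not evidence about the 28 and 25 that did not. Of those, 17 of 28 and 15 of 25 were higher in control than in both treated groups of their dose.

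With Ag2S NPs at 160 µg/mL 23 of the 31 genes had fallen against control and none had risen, while 23.8% of all 11987 genes tested had fallen. With Ag2S NPs at 320 µg/mL 28 of 31 had fallen (36.2% of all), with Li-doped Ag2S NPs at 160 µg/mL 30 of 31 (40.6% of all) and with Li-doped Ag2S NPs at 320 µg/mL 27 of 31 (44.6% of all), and none had risen in any of them. The median log2 fold change of the members was -1.09, -1.97, -2.78 and -1.72 in these 4 comparisons, beside -0.14, -0.18, -0.19 and -0.26 over all genes tested. Among the genes at 1 FPKM or more in every group of their dose, 15 of 17 had fallen with Ag2S NPs and 16 of 17 with Li-doped Ag2S NPs at 160 µg/mL, and 18 of 19 and 17 of 19 at 320 µg/mL. The 4 comparisons share the 3 control libraries, so their agreement is not independent. With a pseudocount of 1 the medians of the members were -1.28 with Ag2S NPs at 320 µg/mL and -1.74 with Li-doped Ag2S NPs at 160 µg/mL, so their size depends on the pseudocount.

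The median of all genes tested was below control in each comparison, and scaling each library to the median ratio removes that shift. After this scaling 19, 24, 29 and 25 of the members had fallen with Ag2S NPs at 160 and 320 µg/mL and Li-doped Ag2S NPs at 160 and 320 µg/mL, beside 12.8%, 21.4%, 30.1% and 25.9% of all genes, and none had risen. The calls that it removed were those of HIST3H2A, HIST4H4, HIST1H4E and HIST1H2AE with Ag2S NPs at 160 µg/mL, HIST3H2A, HIST3H2BB and HIST1H4J with Ag2S NPs at 320 µg/mL, HIST1H2AK with Li-doped Ag2S NPs at 160 µg/mL, and HIST1H1C and HIST1H2AM with Li-doped Ag2S NPs at 320 µg/mL. HIST1H3B, called with Ag2S NPs at 320 µg/mL, was no longer among the genes tested after scaling.

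Of the 30 genes that passed at both doses, 21 had fallen in all 4 comparisons with control, 5 in 3, 3 in 2 and HIST1H2AK in 1. Control had the highest mean in all 30, Li-doped Ag2S NPs at 160 µg/mL the lowest in 25, and Ag2S NPs at 160 µg/mL the highest of the treated groups in 26. The full order, from low to high, of Li-doped Ag2S NPs at 160 µg/mL, Ag2S NPs at 320 µg/mL, Li-doped Ag2S NPs at 320 µg/mL, Ag2S NPs at 160 µg/mL and control was found in 16. The shares of all genes with such joint calls or orders were not computed, so these counts only describe the members. Control as the highest group follows in part from a threshold that control alone can pass.

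**Figure D2:**
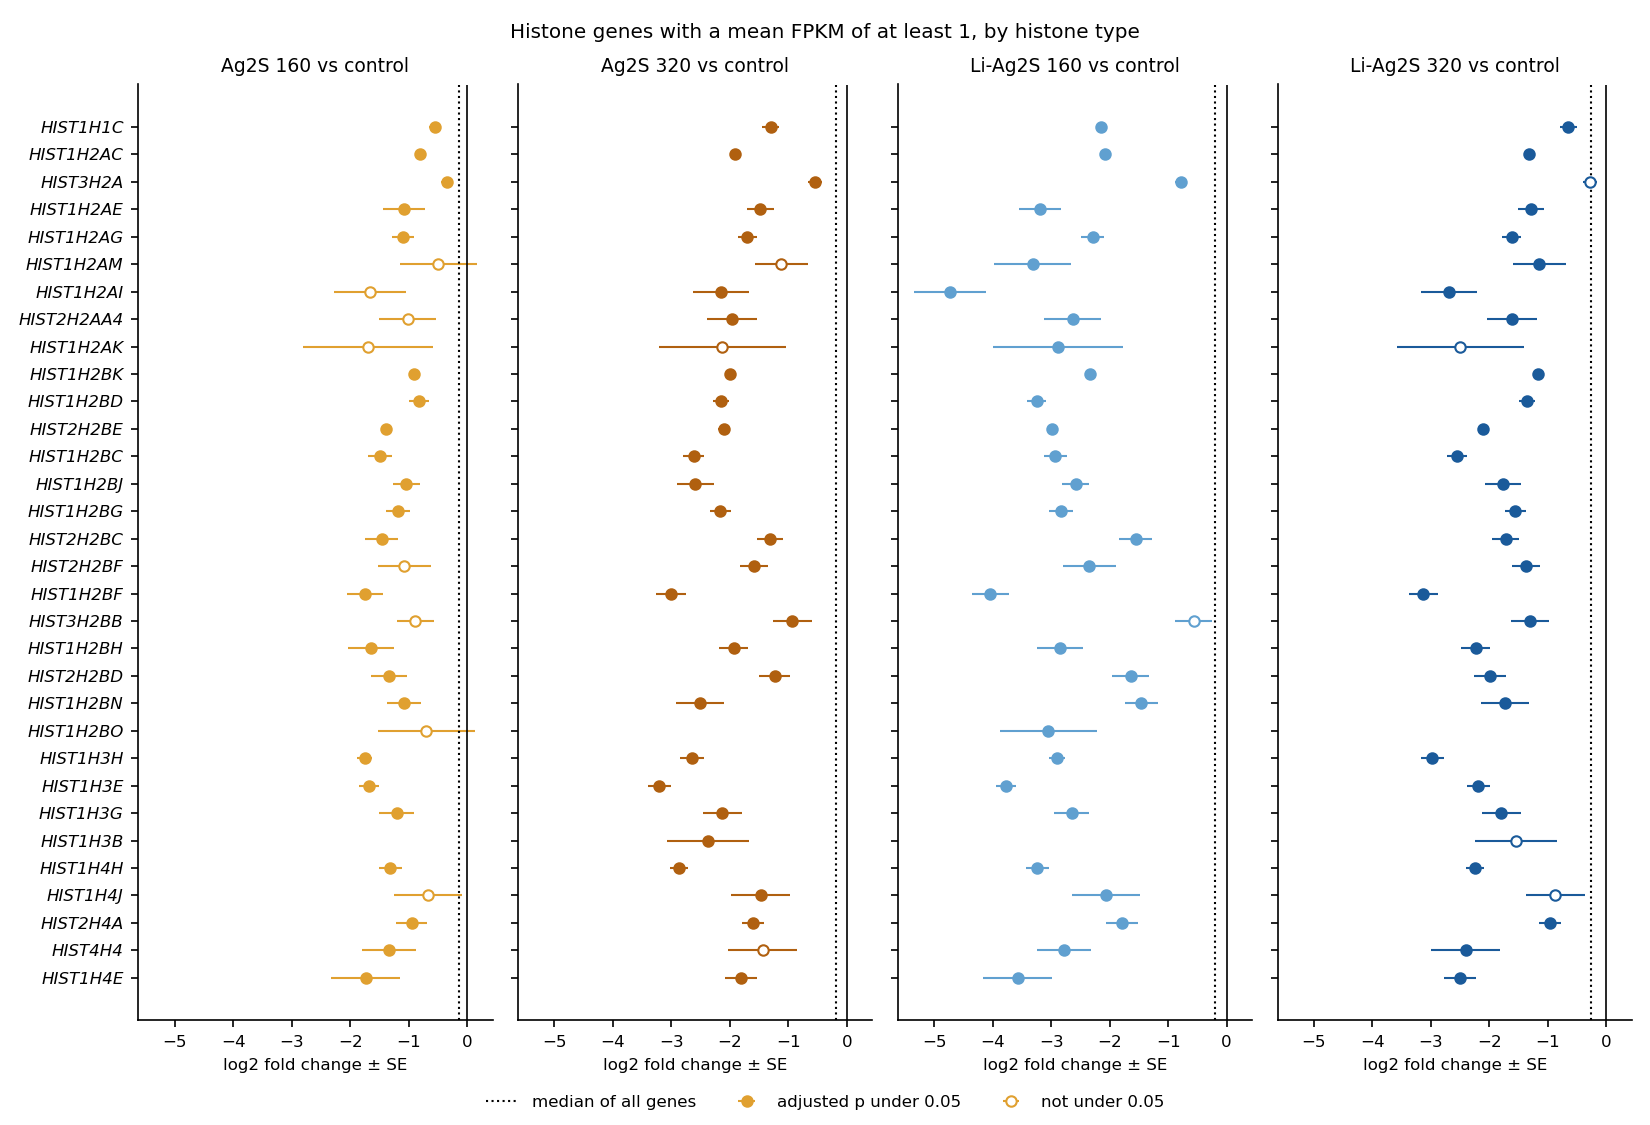
Log2 fold change against control (x axis, with SE) of each histone gene that reached a mean FPKM of 1 (y axis, by type), with one panel for each treated group. Filled points passed an adjusted p of 0.05 and open points did not, the dotted line is the median of all genes, and every point lies below 0.

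Among the H1 genes only HIST1H1C, which codes for the linker histone H1.2, passed the threshold. HIST1H1C had 68.6, 71 and 82.4 FPKM with Ag2S NPs at 160 µg/mL and 35.6, 48.3 and 49.4 FPKM at 320 µg/mL. Its levels with Li-doped Ag2S NPs were 23, 24 and 26 FPKM at 160 µg/mL and 60.5, 62.6 and 85.9 FPKM at 320 µg/mL, against 109.8, 101 and 115 FPKM in control cells. The control libraries were above all others, and the Li-doped Ag2S NPs at 160 µg/mL the lowest, with no overlap with any other group. HIST1H1C fell in all 4 comparisons with control, with log2 changes of -0.55 ± 0.09 and -1.30 ± 0.15 with Ag2S NPs at 160 and 320 µg/mL and -2.15 ± 0.09 and -0.66 ± 0.15 with Li-doped Ag2S NPs at 160 and 320 µg/mL (SE). The last of these 4, with Li-doped Ag2S NPs at 320 µg/mL (adjusted p = 0.0026), was lost after scaling to the median ratio.

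The next H1 genes, HIST1H1D (H1.3) and HIST1H1E (H1.4), did not reach the threshold and were not tested. HIST1H1D had 0.39, 0.54 and 0.58 FPKM with Ag2S NPs at 160 µg/mL and 0.17, 0.38 and 0.33 FPKM at 320 µg/mL. The Li-doped Ag2S NPs gave 0.37, 0.53 and 0.76 FPKM at 160 µg/mL and 0.66, 0.41 and 0.16 FPKM at 320 µg/mL, against 2.09, 0.97 and 1.54 FPKM in control cells. The control libraries were the highest and did not overlap the treated ones. HIST1H1E was low throughout, with 0.31, 0.87 and 0.49 FPKM with Ag2S NPs at 160 µg/mL and 0.27, 0.15 and 0 FPKM at 320 µg/mL, 0.29, 0.14 and 0.74 FPKM with Li-doped Ag2S NPs at 160 µg/mL and 0.52, 0.11 and 0.25 FPKM at 320 µg/mL, against 0.39, 0 and 0 FPKM in control cells. It showed no order of the groups.

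HIST1H2AC was the most abundant H2A gene. HIST1H2AC had 42.6, 44.6 and 44.2 FPKM with Ag2S NPs at 160 µg/mL and 19.4, 19.6 and 21.9 FPKM at 320 µg/mL. It was at 19.5, 17.6 and 17.6 FPKM with Li-doped Ag2S NPs at 160 µg/mL and 28.9, 33.1 and 30.6 FPKM at 320 µg/mL, against 74.3, 79.8 and 76.8 FPKM in control cells. The libraries of a group lay close together, control was above every treated library, and those of Ag2S NPs at 320 µg/mL overlapped those of Li-doped Ag2S NPs at 160 µg/mL. It fell, with log2 changes of -0.81 ± 0.07 and -1.92 ± 0.08 with Ag2S NPs at 160 and 320 µg/mL and -2.08 ± 0.07 and -1.32 ± 0.08 with Li-doped Ag2S NPs at 160 and 320 µg/mL (SE), with adjusted p between 2.5e-09 and 2.1e-05.

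Of the 6 most abundant genes, HIST3H2A on chromosome 1 had the smallest changes. HIST3H2A had 32.9, 40.2 and 39.8 FPKM with Ag2S NPs at 160 µg/mL and 29.4, 34.6 and 34.2 FPKM at 320 µg/mL. Under Li-doped Ag2S NPs it had 28.8, 24.7 and 30.2 FPKM at 160 µg/mL and 38.8, 32.6 and 47 FPKM at 320 µg/mL, against 49.9, 46.9 and 46 FPKM in control cells. A single library of Li-doped Ag2S NPs at 320 µg/mL, with 47 FPKM, reached into the control range. Its log2 changes of -0.34 ± 0.10 and -0.54 ± 0.12 with Ag2S NPs at 160 and 320 µg/mL and -0.77 ± 0.10 and -0.29 ± 0.12 with Li-doped Ag2S NPs at 160 and 320 µg/mL (SE) passed the test in the first 3 groups and not in the last (adjusted p = 0.054).

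HIST1H2AE had 8.64, 8.31 and 6.84 FPKM with Ag2S NPs at 160 µg/mL and 5.23, 5.02 and 8.12 FPKM at 320 µg/mL. Its levels with Li-doped Ag2S NPs were 3.32, 0.87 and 1.81 FPKM at 160 µg/mL and 8.17, 4.97 and 7.81 FPKM at 320 µg/mL, against 18.4, 13.5 and 19.2 FPKM in control cells. The control range lay above all treated libraries, and the lowest libraries were those of Li-doped Ag2S NPs at 160 µg/mL. HIST1H2AE fell in all 4 comparisons, with log2 changes of -1.08 ± 0.36 and -1.48 ± 0.23 with Ag2S NPs at 160 and 320 µg/mL and -3.19 ± 0.36 and -1.29 ± 0.23 with Li-doped Ag2S NPs at 160 and 320 µg/mL (SE), although the first of these was close to the limit (adjusted p = 0.037) and was lost under 8 of 18 alternatives.

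HIST1H2AI had the largest fitted fall of all members. HIST1H2AI had 1.19, 1.8 and 1.5 FPKM with Ag2S NPs at 160 µg/mL and 1.76, 0.58 and 1 FPKM at 320 µg/mL. The Li-doped Ag2S NPs gave 0, 0 and 0.55 FPKM at 160 µg/mL and 0.24, 1.22 and 0.91 FPKM at 320 µg/mL, against 4.12, 5.59 and 5.02 FPKM in control cells. Zeros in 2 libraries of Li-doped Ag2S NPs at 160 µg/mL make its fitted change of -4.74 ± 0.61 (SE), adjusted p = 5.5e-05 depend on the pseudocount, so it is no measure of how far it fell. HIST1H2AI passed the threshold at both doses only with control in the mean, so its falls only describe it. The other H2A genes that passed were HIST1H2AG, HIST1H2AM, HIST2H2AA4 and HIST1H2AK, with control means of 11.6, 3.67, 3.63 and 2.77 FPKM. HIST1H2AG fell in all 4 comparisons, between -1.09 with Ag2S NPs at 160 µg/mL and -2.29 with Li-doped Ag2S NPs at 160 µg/mL, HIST1H2AI and HIST2H2AA4 in 3, HIST1H2AM in 2 and HIST1H2AK in 1.

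HIST1H2BK had the highest FPKM of all members, a rank that depends on its annotated model of 381 bases. HIST1H2BK had 68.3, 80.7 and 85.1 FPKM with Ag2S NPs at 160 µg/mL and 36, 34.6 and 37.9 FPKM at 320 µg/mL. It was at 31.1, 28.2 and 26.8 FPKM with Li-doped Ag2S NPs at 160 µg/mL and 58.6, 64.2 and 70.4 FPKM at 320 µg/mL, against 139, 151 and 145 FPKM in control cells. The ranges of the 5 groups did not touch, except that Ag2S NPs at 160 and Li-doped Ag2S NPs at 320 µg/mL overlapped. The gene fell, with log2 changes of -0.90 ± 0.09 and -2.00 ± 0.08 with Ag2S NPs at 160 and 320 µg/mL and -2.34 ± 0.09 and -1.17 ± 0.08 with Li-doped Ag2S NPs at 160 and 320 µg/mL (SE), with adjusted p between 6.2e-09 and 6.2e-05.

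HIST1H2BD had 37.1, 47.8 and 51.3 FPKM with Ag2S NPs at 160 µg/mL and 16.4, 17.3 and 19.9 FPKM at 320 µg/mL. Under Li-doped Ag2S NPs it had 7.78, 10.7 and 6.84 FPKM at 160 µg/mL and 25.3, 31.1 and 38.1 FPKM at 320 µg/mL, against 73, 79.1 and 87 FPKM in control cells. Here the lowest group, Li-doped Ag2S NPs at 160 µg/mL, lay well below the other 3 treated groups. HIST1H2BD fell, with log2 changes of -0.82 ± 0.16 and -2.15 ± 0.14 with Ag2S NPs at 160 and 320 µg/mL and -3.25 ± 0.16 and -1.35 ± 0.14 with Li-doped Ag2S NPs at 160 and 320 µg/mL (SE). It overlaps AL353759.1 on the opposite strand, and reads of the 2 cannot be separated without strand, which the sources do not state.

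HIST2H2BE had 21, 20.9 and 19.6 FPKM with Ag2S NPs at 160 µg/mL and 11.6, 12.5 and 13.2 FPKM at 320 µg/mL. Its levels with Li-doped Ag2S NPs were 6.51, 7.44 and 6.22 FPKM at 160 µg/mL and 11.3, 13.2 and 12.8 FPKM at 320 µg/mL, against 52.1, 54.3 and 55.1 FPKM in control cells. All 4 treated groups of HIST2H2BE were far below control, and only the pair of groups at 320 µg/mL overlapped. It fell, with log2 changes of -1.39 ± 0.09 and -2.11 ± 0.09 with Ag2S NPs at 160 and 320 µg/mL and -2.99 ± 0.09 and -2.11 ± 0.09 with Li-doped Ag2S NPs at 160 and 320 µg/mL (SE), and its fall with Li-doped Ag2S NPs at 160 µg/mL had the smallest adjusted p of any member (8.8e-10).

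HIST1H2BF was the H2B gene that fell furthest. HIST1H2BF had 1.65, 1.01 and 1.31 FPKM with Ag2S NPs at 160 µg/mL and 0.54, 0.39 and 0.53 FPKM at 320 µg/mL. The Li-doped Ag2S NPs gave 0.30, 0.19 and 0.10 FPKM at 160 µg/mL and 0.36, 0.53 and 0.43 FPKM at 320 µg/mL, against 4.34, 4.86 and 4.57 FPKM in control cells. Control was above all treated libraries by a wide margin. The log2 changes were -1.74 ± 0.31 and -3.01 ± 0.25 with Ag2S NPs at 160 and 320 µg/mL and -4.04 ± 0.31 and -3.13 ± 0.25 with Li-doped Ag2S NPs at 160 and 320 µg/mL (SE), all past the test. At under 1 FPKM in 3 of the 4 treated groups its fold changes are understated by the pseudocount. At 320 µg/mL HIST1H2BF passed the threshold through control alone, and at 160 µg/mL only with control in the mean. Its falls therefore only describe it.

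The other H2B genes that passed in both tables, HIST1H2BC, HIST1H2BJ, HIST1H2BG, HIST1H2BH and HIST1H2BN, fell in all 4 comparisons. Their control means were 20.7, 8.95, 8.44, 3.26 and 2.25 FPKM. HIST1H2BH and HIST1H2BN passed the threshold at 320 µg/mL through control alone, and at 160 µg/mL only with control in the mean. HIST2H2BF fell in 3, and HIST1H2BO, which passed at 160 µg/mL only, in the comparison of Li-doped Ag2S NPs with control. The remaining 3 are given with the exceptions below.

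**Figure D3:**
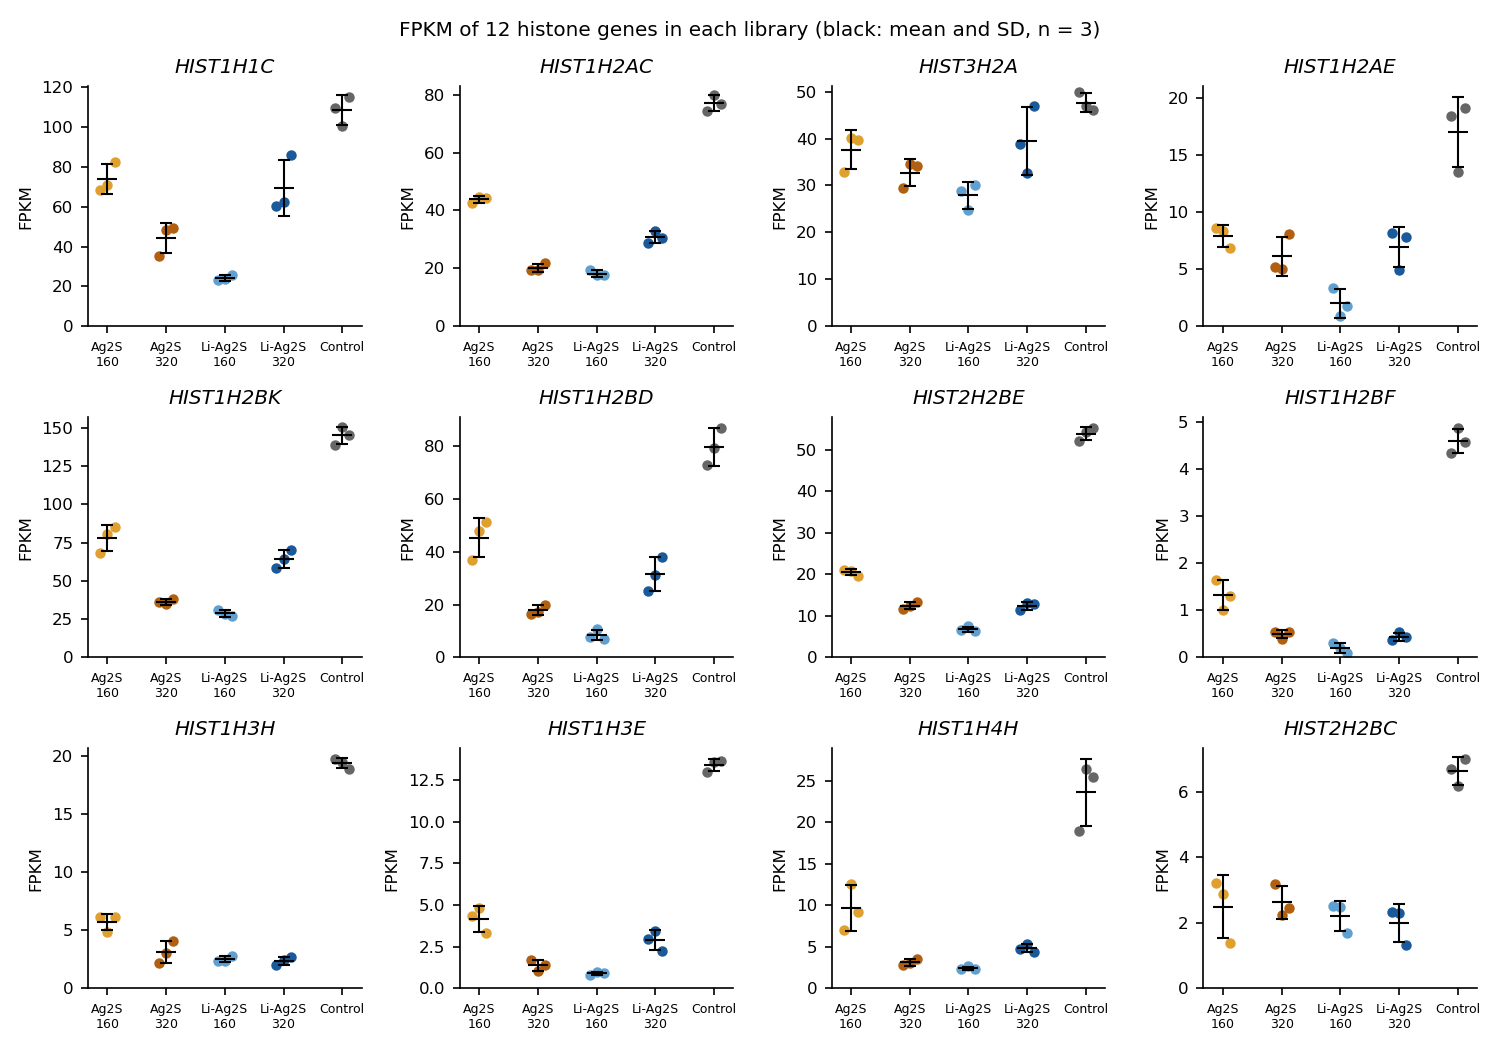
FPKM (y axis) in each library of the 5 groups (x axis) for 12 histone genes, with points for libraries and black bars for the mean and SD of 3. Control is the highest group in each panel, and in HIST1H2BK the mean is 28.7 FPKM with Li-doped Ag2S NPs at 160 µg/mL and 145 FPKM in control.

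Of the H3 genes, which all code for the replication-dependent H3.1 or H3.2 apart from the testis gene HIST3H3, 4 passed in at least 1 table. HIST1H3H had 6.13, 4.89 and 6.13 FPKM with Ag2S NPs at 160 µg/mL and 2.18, 3.06 and 4.07 FPKM at 320 µg/mL. It was at 2.37, 2.37 and 2.81 FPKM with Li-doped Ag2S NPs at 160 µg/mL and 2.02, 2.46 and 2.69 FPKM at 320 µg/mL, against 19.8, 19.4 and 18.9 FPKM in control cells. Control was far above every treated library, and the highest treated libraries were those of Ag2S NPs at 160 µg/mL. HIST1H3H fell, with log2 changes of -1.75 ± 0.13 and -2.65 ± 0.20 with Ag2S NPs at 160 and 320 µg/mL and -2.90 ± 0.13 and -2.98 ± 0.20 with Li-doped Ag2S NPs at 160 and 320 µg/mL (SE).

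HIST1H3E had 4.37, 4.84 and 3.3 FPKM with Ag2S NPs at 160 µg/mL and 1.71, 1.06 and 1.39 FPKM at 320 µg/mL. Under Li-doped Ag2S NPs it had 0.80, 0.97 and 0.90 FPKM at 160 µg/mL and 2.99, 3.46 and 2.25 FPKM at 320 µg/mL, against 13, 13.6 and 13.7 FPKM in control cells. HIST1H3E had the lowest libraries under Li-doped Ag2S NPs at 160 µg/mL, with no overlap between that group and any other. Its log2 changes were -1.68 ± 0.17 and -3.21 ± 0.20 with Ag2S NPs at 160 and 320 µg/mL and -3.77 ± 0.17 and -2.19 ± 0.20 with Li-doped Ag2S NPs at 160 and 320 µg/mL (SE), and it had the largest fall with Ag2S NPs at 320 µg/mL of any member.

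HIST1H3G was less abundant. HIST1H3G had 1.28, 1.18 and 1.09 FPKM with Ag2S NPs at 160 µg/mL and 0.52, 0.84 and 0.42 FPKM at 320 µg/mL. Its levels with Li-doped Ag2S NPs were 0.32, 0.25 and 0.60 FPKM at 160 µg/mL and 0.90, 1.01 and 0.45 FPKM at 320 µg/mL, against 2.46, 3.02 and 3.09 FPKM in control cells. All treated libraries were below the control ones, and it fell, with log2 changes of -1.20 ± 0.30 and -2.13 ± 0.33 with Ag2S NPs at 160 and 320 µg/mL and -2.65 ± 0.30 and -1.79 ± 0.33 with Li-doped Ag2S NPs at 160 and 320 µg/mL (SE). HIST1H3B passed only at 320 µg/mL, where it fell with Ag2S NPs (-2.38 ± 0.70 (SE), adjusted p = 0.015) and its value with Li-doped Ag2S NPs was -1.54 ± 0.70 (SE), adjusted p = 0.076. HIST1H3G and HIST1H3B passed at 320 µg/mL through control alone, so their falls there only describe them. The same holds for HIST1H3G at 160 µg/mL, where it passed only with control in the mean.

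HIST1H4H was the most abundant H4 gene. HIST1H4H had 7.05, 12.6 and 9.25 FPKM with Ag2S NPs at 160 µg/mL and 2.8, 3.01 and 3.55 FPKM at 320 µg/mL. The Li-doped Ag2S NPs gave 2.27, 2.63 and 2.29 FPKM at 160 µg/mL and 4.74, 5.39 and 4.42 FPKM at 320 µg/mL, against 18.9, 26.4 and 25.5 FPKM in control cells. Control was above all treated groups and Li-doped Ag2S NPs at 160 µg/mL below all others. It fell, with log2 changes of -1.31 ± 0.20 and -2.87 ± 0.15 with Ag2S NPs at 160 and 320 µg/mL and -3.23 ± 0.20 and -2.25 ± 0.15 with Li-doped Ag2S NPs at 160 and 320 µg/mL (SE).

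HIST1H4J had 3.24, 5.17 and 6.94 FPKM with Ag2S NPs at 160 µg/mL and 0.92, 5.19 and 4.19 FPKM at 320 µg/mL. It was at 0.50, 3.48 and 3.07 FPKM with Li-doped Ag2S NPs at 160 µg/mL and 4.24, 5.52 and 3.21 FPKM at 320 µg/mL, against 6.71, 6.52 and 10.8 FPKM in control cells. The libraries of HIST1H4J spread widely within each group, and treated and control ranges overlapped with Ag2S NPs at 160 µg/mL. It fell with Ag2S NPs at 320 µg/mL (-1.47 ± 0.50 (SE), adjusted p = 0.029) and Li-doped Ag2S NPs at 160 µg/mL (-2.06 ± 0.58 (SE), adjusted p = 0.0091), and 72.8% of the 150-base windows of its model also occur in other histone genes.

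HIST2H4A had 3.25, 3.94 and 2.37 FPKM with Ag2S NPs at 160 µg/mL and 1.86, 1.61 and 2.41 FPKM at 320 µg/mL. Under Li-doped Ag2S NPs it had 2.61, 1.2 and 1.55 FPKM at 160 µg/mL and 2.68, 2.92 and 3.73 FPKM at 320 µg/mL, against 6.47, 5.67 and 6.19 FPKM in control cells. No treated library of HIST2H4A reached a control library. It fell, with log2 changes of -0.94 ± 0.27 and -1.61 ± 0.19 with Ag2S NPs at 160 and 320 µg/mL and -1.79 ± 0.27 and -0.96 ± 0.19 with Li-doped Ag2S NPs at 160 and 320 µg/mL (SE), with 92.2% of its windows shared with other histone genes.

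HIST1H4E had 0.78, 0.99 and 0.51 FPKM with Ag2S NPs at 160 µg/mL and 0.92, 0.60 and 0.60 FPKM at 320 µg/mL. Its levels with Li-doped Ag2S NPs were 0, 0.57 and 0.09 FPKM at 160 µg/mL and 0.45, 0.37 and 0.36 FPKM at 320 µg/mL, against 2.76, 3.05 and 2.28 FPKM in control cells. HIST1H4E was above 2 FPKM in control and under 1 in every treated library, and fell, with log2 changes of -1.73 ± 0.59 and -1.81 ± 0.27 with Ag2S NPs at 160 and 320 µg/mL and -3.57 ± 0.59 and -2.50 ± 0.27 with Li-doped Ag2S NPs at 160 and 320 µg/mL (SE). The first of these was near the limit (adjusted p = 0.043) and was lost under 8 of 15 alternatives. HIST1H4E passed the threshold through control alone at both doses, so its falls only describe it. HIST4H4 fell in 3 comparisons and did not pass with Ag2S NPs at 320 µg/mL (-1.44 ± 0.59 (SE), adjusted p = 0.059). At 160 µg/mL HIST4H4 passed the threshold only with control in the mean.

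Near-identical copies can share reads of 150 bases. Of the 59 genes, 13 had at least 1 window of 150 bases in common with another histone gene, and 9 of these passed the threshold at either dose. The share of windows held in common was 96.4% in HIST2H2AA4, 92.2% in HIST2H4A, 80.7% in HIST1H2AM, 72.8% in HIST1H4J and 51.7% in HIST1H2AI, 14.1% in HIST2H2BD, 7.76% in HIST2H2BC, 5.58% in HIST2H2BF and 1.35% in HIST3H2BB. The levels of the first 5 depend on how reads were divided between copies and are uncertain. The other 23 genes that passed, among them HIST1H2BK, HIST1H1C, HIST1H2BD, HIST1H2AC, HIST2H2BE, HIST3H2A, HIST1H4H and HIST1H3H, shared no window. Of the genes that passed, 7 overlap another gene on the opposite strand.

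The particles were compared at matched doses, 1 pair of groups at each dose. At 160 µg/mL 25 of 31 genes were lower with Li-doped Ag2S NPs than with Ag2S NPs and none was higher, while 29% of all genes were lower. The median log2 difference of the members was -1.45, beside -0.05 over all genes tested, and -0.95 over the members with a pseudocount of 1. The 4 members with the smallest p were HIST1H2AC at -1.26 ± 0.07 (SE), adjusted p = 1.8e-07, HIST2H2BE at -1.60 ± 0.09 (SE), HIST1H1C at -1.60 ± 0.09 (SE) and HIST1H2BK at -1.44 ± 0.09 (SE). HIST1H2BD differed more, at -2.43 ± 0.16 (SE), with 8.42 ± 1.98 FPKM with Li-doped Ag2S NPs against 45.4 ± 7.41 FPKM with Ag2S NPs (SD, n = 3).

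At 320 µg/mL the difference had the other sign where it passed the test. With Li-doped Ag2S NPs 8 of 31 genes were higher than with Ag2S NPs, beside 10.1% of all genes, and none was lower, with a median of 0.22 over the members and -0.08 over all genes tested. The 8 were HIST1H2BK, HIST1H2AC, HIST1H2BD, HIST1H3E, HIST1H1C, HIST1H4H, HIST2H4A and HIST1H2BG. HIST1H2BK was higher by 0.83 ± 0.08 (SE), adjusted p = 4e-05, HIST1H2AC by 0.60 ± 0.08 (SE), adjusted p = 0.00039, HIST1H2BD by 0.80 ± 0.14 (SE), adjusted p = 0.002 and HIST1H3E by 1.02 ± 0.20 (SE), adjusted p = 0.0048.

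Among the genes that did not pass at 320 µg/mL, HIST2H2BE had the difference -0.003 (95% interval -0.19 to 0.19), HIST1H2BC 0.06 (95% interval -0.32 to 0.45) and HIST3H2A 0.26 (95% interval -0.003 to 0.52). HIST1H3H, at -0.33 (95% interval -0.77 to 0.11), was not on the side of the 8 genes that were higher. For low genes such as HIST1H2AK, at -0.37 (95% interval -2.76 to 2.02), a difference of this size was not detectable.

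The dose had opposite effects for the particles. Doses were compared in 1 fit of all 15 libraries, in which 28 members passed the threshold. With Ag2S NPs 12 of 28 genes were lower at 320 than at 160 µg/mL and none was higher, beside 7.68% of all genes lower. With Li-doped Ag2S NPs 16 of 28 were higher at 320 than at 160 µg/mL and none was lower, beside 19.6% of all genes higher. The medians were -0.73 and 0.87 over the members and -0.04 and -0.06 over all genes tested, and with a pseudocount of 1 the median of the members with Li-doped Ag2S NPs was 0.55.

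With Ag2S NPs the smallest p belonged to HIST1H2AC, with 20.3 ± 1.39 FPKM at 320 against 43.8 ± 1.07 FPKM at 160 µg/mL (SD, n = 3), a log2 change of -1.11 ± 0.08 (SE), adjusted p = 2.7e-07. HIST1H2BK followed with -1.10 ± 0.09 (SE), adjusted p = 1.9e-06, HIST1H4H with -1.56 ± 0.19 (SE), adjusted p = 7.8e-05 and HIST1H2BD with -1.33 ± 0.17 (SE), adjusted p = 0.00013. With Li-doped Ag2S NPs the same 320 over 160 µg/mL change was 1.16 ± 0.09 (SE), adjusted p = 9.5e-08 in HIST1H2BK, 1.90 ± 0.17 (SE), adjusted p = 4.1e-07 in HIST1H2BD, 1.50 ± 0.14 (SE), adjusted p = 5.3e-07 in HIST1H1C and 0.76 ± 0.08 (SE), adjusted p = 1.3e-06 in HIST1H2AC. All 4 of these rose, and all 4 fell with Ag2S NPs.

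The difference between these dose effects, Li-doped minus undoped, was tested as an interaction and passed in 20 of 28 genes, all of them above 0, beside 20.2% of all genes above 0. The median was 1.83 over the members and -0.04 over all genes tested, and 1.06 over the members with a pseudocount of 1. HIST1H2BD had the largest, at 3.23 ± 0.24 (SE), adjusted p = 7.8e-08, followed by HIST1H3E at 3.11 ± 0.29 (SE), adjusted p = 8.4e-07. HIST3H2A had the smallest of the 20, at 0.69 ± 0.17 (SE), adjusted p = 0.0054. The 20 included HIST1H1C, 7 of 8 H2A, 7 of 12 H2B, 3 of 3 H3 and 2 of 4 H4 genes.

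**Figure D4:**
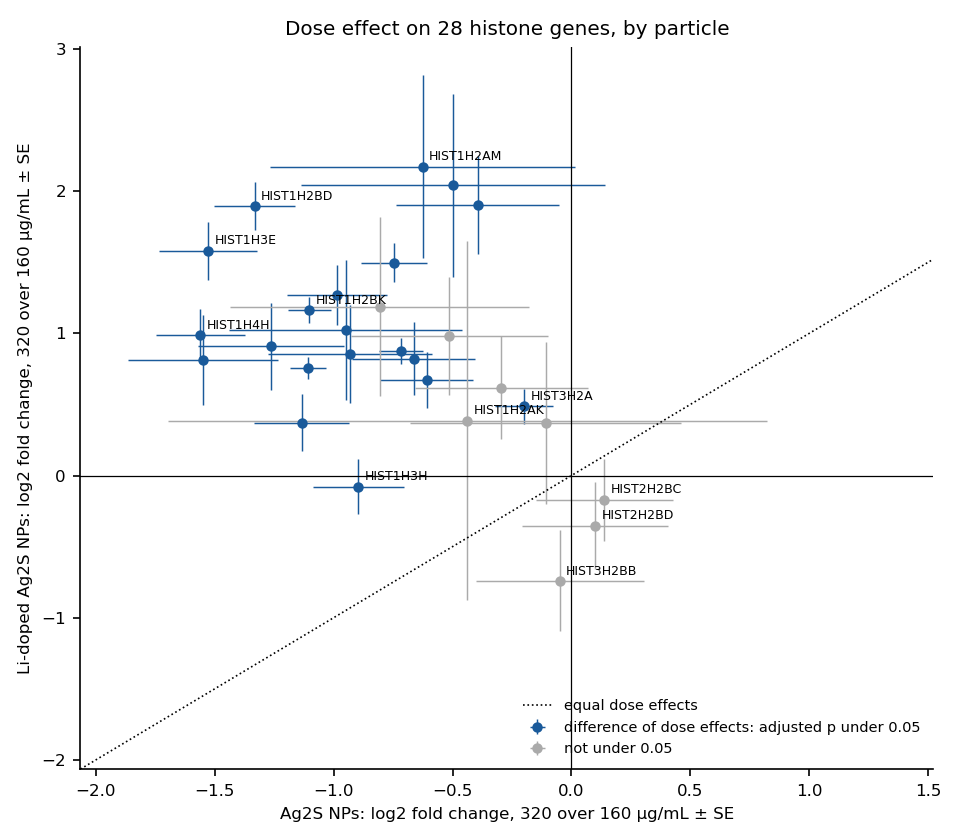
Log2 fold change of 320 over 160 µg/mL with Ag2S NPs (x axis) and with Li-doped Ag2S NPs (y axis), each with SE, for the 28 histone genes of the joint fit, where blue points passed the test of the difference and the dotted line marks equal effects. Most points lie to the left of 0 and above it, and HIST2H2BC, HIST2H2BD and HIST3H2BB lie below the dotted line.

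One library, replicate 15 of Li-doped Ag2S NPs at 320 µg/mL, had the largest FPKM sum over all genes (698579, where the lowest of its group had 626624) and the highest member sum of its group (344 FPKM). Without it 29 members passed the threshold, of which 12 were higher at 320 than at 160 µg/mL with Li-doped Ag2S NPs, beside 2187 of all 11968 genes tested. The interaction test was then passed by 16 members, beside 2444 of all 11968 genes above 0. The 2 replicates left had member sums of 280 and 295 FPKM, above every library of Li-doped Ag2S NPs at 160 µg/mL, where the highest was 153 FPKM.

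A few genes departed from this pattern, and were singled out after their values were seen. HIST2H2BC and HIST2H2BD, pseudogenes that overlap each other on opposite strands, were below control in all 4 comparisons but passed no test of dose or particle. HIST2H2BD passed the threshold through control alone at both doses. HIST2H2BC had 2.49 ± 0.96, 2.62 ± 0.49, 2.22 ± 0.46 and 1.99 ± 0.57 FPKM with Ag2S NPs at 160 and 320 µg/mL and Li-doped Ag2S NPs at 160 and 320 µg/mL, against 6.62 ± 0.42 FPKM in control (SD, n = 3 each). Its interaction was -0.31 ± 0.41 (SE), adjusted p = 0.58. HIST3H2BB, an H2B gene whose start lies 234 bases from that of HIST3H2A, had an interaction of -0.69 ± 0.50 (SE), adjusted p = 0.29 and did not pass against control with Li-doped Ag2S NPs at 160 µg/mL (-0.56 ± 0.32 (SE), adjusted p = 0.14).

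HIST1H3H fell with dose under Ag2S NPs (-0.90 ± 0.19 (SE), adjusted p = 0.0061) but did not pass between the doses of Li-doped Ag2S NPs, at 2.39 ± 0.34 FPKM at 320 against 2.52 ± 0.25 FPKM at 160 µg/mL (SD, n = 3) and a log2 change of -0.08 (95% interval -0.48 to 0.33). Its interaction of 0.82 ± 0.27 (SE), adjusted p = 0.024 was lost under 7 of 23 alternatives. HIST2H2BE rose with the dose of Li-doped Ag2S NPs (0.88 ± 0.09 (SE), adjusted p = 2.1e-06) to the level it had with Ag2S NPs at 320 µg/mL, whereas HIST1H2BK, HIST1H2BD and HIST1H2AC rose above that level.

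Levels were set against the annotated transcripts, since an mRNA without a poly(A) tail can be missed where RNA is selected by its tail. The protocol names a TruSeq RNA kit and purification of RNA molecules without saying whether poly(A) RNA was selected. The tables used here held none of the 14 genes listed to look at RNA without a poly(A) tail and none of the 13 mitochondrial mRNAs, so this could not be read from them. Of the 59 genes, 19 had an annotated transcript with a poly(A) signal (AATAAA or ATTAAA, in its last 50 bases) that ran more than 50 bases beyond the stem-loop or lacked it. Their median control level was 8.95 FPKM, and 18 of the 19 had a control mean of at least 1 FPKM. The other 40 had a median control level of 0.99 FPKM, and 20 of them reached 1 FPKM. HIST1H2BK and HIST1H1C, the most abundant of all, were among the 40, with models that hold about the coding length only. Whether the level follows the tail was not tested.

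**Figure D5:**
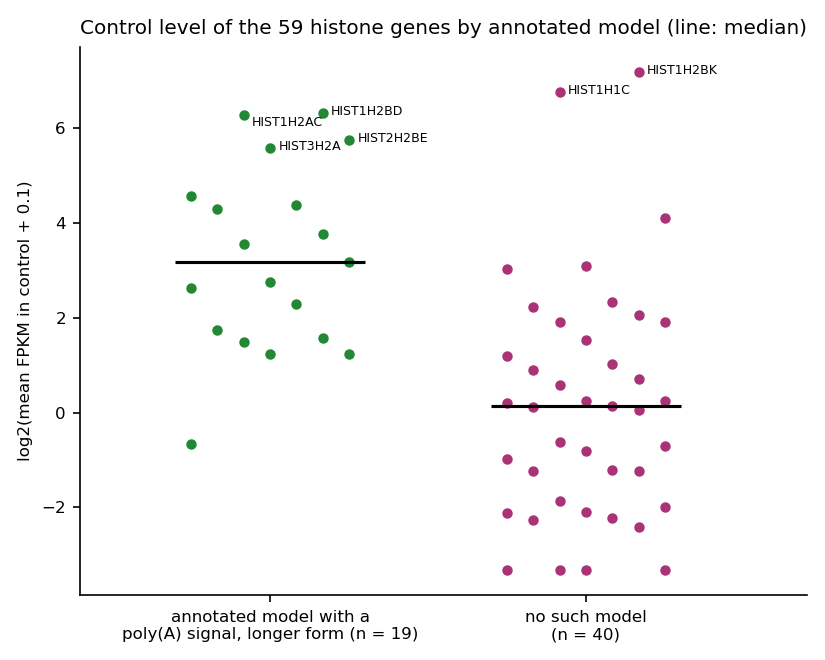
Mean FPKM in control on the scale log2(FPKM + 0.1) (y axis) of the 59 histone genes, with a line at the median. Genes are split by whether an annotated transcript with a poly(A) signal runs past the stem-loop or lacks it (x axis). The median was 8.95 FPKM in 19 genes with such a transcript and 0.99 FPKM in the 40 without.

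HIST1H2BD has 2 annotated forms in the transcript tables. The longer form of 789 bases, which lacks the stem-loop and has a poly(A) signal, was at 29.6 ± 3.13 and 8.62 ± 1.33 FPKM with Ag2S NPs at 160 and 320 µg/mL and 4.68 ± 1.3 and 17.1 ± 2.36 FPKM with Li-doped Ag2S NPs at 160 and 320 µg/mL, against 46.9 ± 0.99 FPKM in control (SD, n = 3 each). The shorter form of 496 bases, which has the stem-loop 39 bases before its end and a poly(A) signal as well, was at 15.8 ± 5.5, 9.22 ± 2.27, 3.74 ± 2.81 and 14.4 ± 4.09 FPKM, against 32.9 ± 7.57 FPKM in control. Both forms were lower than control in every treated library. The split between forms is an estimate of the authors' program and was not tested, and for HIST1H2AC it moved between libraries of 1 group by more than the gene did.

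The 6 members listed as known for polyadenylated mRNAs, HIST1H1C, HIST1H2AC, HIST1H2BC, HIST1H2BD, HIST1H2BK and HIST2H2BE, are also among the most abundant. Their summed FPKM was 244 to 289 and 122 to 146 with Ag2S NPs at 160 and 320 µg/mL and 85.8 to 91.4 and 188 to 241 with Li-doped Ag2S NPs at 160 and 320 µg/mL, against 465 to 504 in control. All 6 fell in all 4 comparisons, beside 23.8%, 36.2%, 40.6% and 44.6% of all genes fallen in each comparison on its own. All 6 passed the interaction test, all above 0, beside 20.2% of all genes. Their medians against control were -0.86, -2.06, -2.63 and -1.34 in the order of the groups above.

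Many histone genes, mostly an H2A with an H2B gene, stand head to head, so that 1 short stretch of DNA lies between their starts. Among the members 13 such pairs had starts under 1000 bases apart, with HIST1H2BO in 2 of them, and in several the partners differed in level. HIST1H2BK had a control mean of 145 FPKM and its partner HIST1H2AH, 331 bases away, 0.17 FPKM. HIST2H2BE had 53.9 FPKM and HIST2H2AC, 323 bases away, 1.05 FPKM. HIST3H2A had 47.6 FPKM and HIST3H2BB, 234 bases away, 2.19 FPKM. HIST1H2AC and HIST1H2BC, 219 bases apart, had 77.0 and 20.7 FPKM, and HIST1H2AG and HIST1H2BJ, 292 bases apart, 11.6 and 8.95 FPKM. Models of the low partners HIST1H2AH and HIST2H2AC are 387 and 390 bases long and hold no stem-loop. The model of the high partner HIST1H2BK, of 381 bases, is as short and holds none either.

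Genes around the histone genes were read as 4 lists. The first, replacement histones, come from genes other than the members. Of 11 tested, 3 and 7 fell with Ag2S NPs at 160 and 320 µg/mL and 9 and 7 with Li-doped Ag2S NPs at 160 and 320 µg/mL, beside 23.8%, 36.2%, 40.6% and 44.6% of all genes tested in these comparisons. The medians were -0.07, -0.27, -0.60 and -0.27, where those of all genes were -0.14, -0.18, -0.19 and -0.26, so with Ag2S NPs at 160 µg/mL the list was near the rest by count and above it by median. H1F0 (H1.0, the linker histone of cells that leave the cycle) was at 278 ± 9.25, 211 ± 4.73, 208 ± 1.85 and 190.0 ± 12.1 FPKM in these groups, against 409.6 ± 6.71 FPKM in control (SD, n = 3 each), and fell, with log2 changes of -0.56 and -0.96 with Ag2S NPs at 160 and 320 µg/mL and -0.98 and -1.11 with Li-doped Ag2S NPs at 160 and 320 µg/mL. CENPA, the histone of centromeres, had log2 changes of -0.60 and -1.21 with Ag2S NPs at 160 and 320 µg/mL and -1.50 and -1.21 with Li-doped Ag2S NPs at 160 and 320 µg/mL, passing in all 4. H3F3B, 1 of the genes for H3.3, had log2 changes of 0.23 and 0.25 with Ag2S NPs at 160 and 320 µg/mL and -0.02 and 0.29 with Li-doped Ag2S NPs at 160 and 320 µg/mL, and rose in all but the third, while H3F3A, the other H3.3 gene, had log2 changes of -0.07 and -0.27 with Ag2S NPs at 160 and 320 µg/mL and -0.80 and -0.36 with Li-doped Ag2S NPs at 160 and 320 µg/mL, the last 3 past the test. H2AFZ (H2A.Z) and H2AFX (H2A.X) fell in all but Ag2S NPs at 160 µg/mL.

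Of 20 genes whose products copy DNA or make its precursors in S phase, 17 fell with Ag2S NPs at 160 µg/mL and all 20 in each of the other 3 groups, beside the shares of all genes just given for the replacement histones. The medians were -0.78 and -1.04 with Ag2S NPs at 160 and 320 µg/mL and -1.40 and -0.95 with Li-doped Ag2S NPs at 160 and 320 µg/mL. The list thus had its lowest median where the histone genes had theirs. PCNA, the sliding clamp of DNA polymerases, was at 73.4 ± 3.01, 58.3 ± 3, 50.9 ± 3.75 and 62 ± 1.44 FPKM, against 127 ± 1.91 FPKM in control (SD, n = 3 each). MCM5, a helicase subunit, had log2 changes of -0.99 and -1.67 with Ag2S NPs at 160 and 320 µg/mL and -2.77 and -1.16 with Li-doped Ag2S NPs at 160 and 320 µg/mL, all past the test. RRM1, a subunit of ribonucleotide reductase, had log2 changes of -0.33 and -0.64 with Ag2S NPs at 160 and 320 µg/mL and -1.76 and -0.97 with Li-doped Ag2S NPs at 160 and 320 µg/mL, all past the test, as were MCM3 and MCM7. In the interaction 14 of the 20 passed, all above 0, beside 20.2% of all genes, with a median of 0.75. The part of fewer cells in S phase in the lower histone levels was not tested.

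Of 20 genes that act on histone transcription and histone mRNA ends, 6 and 10 fell with Ag2S NPs at 160 and 320 µg/mL and 10 and 14 with Li-doped Ag2S NPs at 160 and 320 µg/mL, beside 23.8%, 36.2%, 40.6% and 44.6% of all genes. The medians were -0.24, -0.33, -0.24 and -0.43. With either particle at 160 µg/mL both count and median were near those of all genes, whose medians were -0.14 with Ag2S NPs and -0.19 with Li-doped Ag2S NPs. SLBP itself was at 18.3 ± 0.22, 21.1 ± 1.92, 22.9 ± 2.33 and 17.8 ± 2.17 FPKM against 22.1 ± 0.37 FPKM in control (SD, n = 3 each), and passed as lower with Ag2S NPs at 160 and Li-doped Ag2S NPs at 320 µg/mL only. NPAT had log2 changes of -0.29 and -0.56 with Ag2S NPs at 160 and 320 µg/mL and -0.78 and -1.07 with Li-doped Ag2S NPs at 160 and 320 µg/mL, all but the first past the test. CASP8AP2 (FLASH), a factor of histone mRNA processing, fell in all 4, with log2 changes of -0.71 and -0.89 with Ag2S NPs at 160 and 320 µg/mL and -1.32 and -1.25 with Li-doped Ag2S NPs at 160 and 320 µg/mL.

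The cyclins of this list went different ways. CCNE2 fell, with log2 changes of -1.41 and -2.03 with Ag2S NPs at 160 and 320 µg/mL and -3.08 and -2.16 with Li-doped Ag2S NPs at 160 and 320 µg/mL. CCNA2 also fell, with log2 changes of -0.75 and -1.49 with Ag2S NPs at 160 and 320 µg/mL and -2.33 and -1.88 with Li-doped Ag2S NPs at 160 and 320 µg/mL. CCNE1 rose with Li-doped Ag2S NPs, its log2 changes being 0.002 and 0.29 with Ag2S NPs at 160 and 320 µg/mL and 1.20 and 0.98 with Li-doped Ag2S NPs at 160 and 320 µg/mL, and its 2 values with Ag2S NPs did not pass. LSM10, a part of U7 snRNP, also rose with Li-doped Ag2S NPs at 160 µg/mL (0.59 ± 0.13 (SE), adjusted p = 0.0018).

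Of 22 histone chaperones, which carry new or old histones to DNA, 13 and 17 fell with Ag2S NPs at 160 and 320 µg/mL and 17 and 17 with Li-doped Ag2S NPs at 160 and 320 µg/mL, beside 23.8%, 36.2%, 40.6% and 44.6% of all genes. The medians were -0.35, -0.42, -0.59 and -0.57. ASF1B, the form of ASF1 that is made in dividing cells, was at 12.3 ± 1.63, 6.54 ± 0.59, 5.13 ± 0.36 and 8.79 ± 0.36 FPKM, against 22.4 ± 1.16 FPKM in control (SD, n = 3 each). Its order of groups is that of HIST1H2BK. The other form, ASF1A, had log2 changes of 0.08 and 0.17 with Ag2S NPs at 160 and 320 µg/mL and 0.34 and -0.03 with Li-doped Ag2S NPs at 160 and 320 µg/mL, with only the third, a rise, past the test. HJURP, the chaperone of CENPA, fell, with log2 changes of -0.61 and -1.03 with Ag2S NPs at 160 and 320 µg/mL and -1.71 and -1.59 with Li-doped Ag2S NPs at 160 and 320 µg/mL. NASP, HAT1 and ATRX also fell in all 4. Against most of the list, NAP1L1 rose in all but Li-doped Ag2S NPs at 320 µg/mL (0.23 and 0.34 with Ag2S NPs at 160 and 320 µg/mL and 0.45 and 0.07 with Li-doped Ag2S NPs at 160 and 320 µg/mL), IPO4 rose with Li-doped Ag2S NPs, by 0.88 and 0.48 at 160 and 320 µg/mL, and UBN1 rose with Li-doped Ag2S NPs at 160 µg/mL (0.30).

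As a check of the cell type, all 12 keratinocyte markers looked for were present, and their summed FPKM was 16991 to 18630 and 19693 to 22280 with Ag2S NPs at 160 and 320 µg/mL and 19362 to 23901 and 33974 to 42481 with Li-doped Ag2S NPs at 160 and 320 µg/mL, against 10123 to 10527 in control. The markers of melanocytes (4 of 5 in the tables) and blood cells (4 of 6) summed to at most 3.34 and 29.4 FPKM in any library. Those of fibroblasts (7 of 8) summed to 2.11 to 7.90 FPKM in treated libraries, against 13.1 to 16.2 FPKM in control, and those of endothelium (3 of 4) to 0.07 to 0.81 FPKM, against 3.36 to 4.01 FPKM in control. Of the 12 keratinocyte markers, 10, 11, 9 and 10 rose in these 4 groups against control, beside 11.5%, 16.2%, 22.6% and 17% of all genes tested. KRT5 fell with Li-doped Ag2S NPs at 160 µg/mL (-0.38 ± 0.09 (SE), adjusted p = 0.005). The highest sum of the keratinocyte markers was with Li-doped Ag2S NPs at 320 µg/mL and the lowest histone sum with Li-doped Ag2S NPs at 160 µg/mL. The part of these markers in the histone levels was not tested.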

How the data were processed

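RNA sequencing had been done on 15 HaCaT libraries, 3 in each of 5 groups, with a TruSeq RNA kit and paired reads of 150 bases. Per the labels and the study's methods, the authors aligned reads with TopHat and estimated FPKM with Cufflinks 2.1.1 and Cuffdiff, with corrections for fragment bias and for reads that match several places. Genome build, annotation and strand setting were not given in the sources used here. FPKM values as deposited, per gene and per transcript, were used as they stand. The control values were the same in the tables of both doses. The files hold no counts, so the depth and the precision it gives are unknown. Columns with the authors' group values, ratios, p-values and calls were not used, nor were the tables of 2 groups.

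Genes were tested on log2(FPKM + 0.1) in R 4.3.3 by limma 3.58.1, whose eBayes step used a trend, over the genes whose mean FPKM was 1 or more, with Benjamini-Hochberg adjustment and a threshold of 0.05. Particle groups were compared with control and with each other in 1 fit of 9 libraries per dose, and doses and their interaction with doping in 1 fit of 15. The fit was tested on simulated data. Gene positions and transcripts came from GENCODE 29 on GRCh38, which held every identifier of the tables, and promoters from RefSeq on GRCh38.p14. Values in every library are given for the 3 most abundant genes of each histone type, the 3 largest falls in each comparison with control and the up to 4 genes with the smallest p between particles or doses. From each list, up to 5 genes with the smallest p and any that went against most of the list are named, without values in every library. The members and lists were chosen with earlier results of these data known. Alternatives tried were pseudocounts of 1 and 0.01, no filter and a minimum mean FPKM of 5, scaling by the median ratio, a robust fit, library weights, only the groups compared, 1 fit of all 15 libraries, and leaving out each library.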

Additional observations from a re-analysis of the deposited data

Results flagged for a closer look

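The test of the difference between dose effects, Li-doped minus undoped, passed in 20 histone genes, each with 320 over 160 µg/mL as the dose effect on the log2 scale. The 3 largest were those of HIST1H2BD (3.23), HIST1H3E (3.11) and HIST1H2AM (2.80). Values between 2 and 3 were also found in HIST1H4H (2.55), HIST1H2AI (2.54), HIST1H2BJ (2.36), HIST1H2AE (2.30), HIST1H2BK (2.26), HIST1H2BG (2.25), HIST1H1C (2.24) and HIST1H2BF (2.17). Smaller ones were those of HIST2H2AA4 (1.97), HIST1H2AC (1.87), HIST1H3G (1.79), HIST2H2BE (1.59), HIST1H2BC (1.51), HIST2H4A (1.49), HIST1H2AG (1.28), HIST1H3H (0.82) and HIST3H2A (0.69). These results were chosen only because the limma adjusted p of this difference was under 0.05. HIST1H2AI, HIST1H2AM, HIST2H2AA4 and HIST2H4A share many of their 150-base windows with other histone genes, so their values are uncertain. The cause of the difference was not tested.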

How the results depend on the processing

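No paired analysis was possible because the replicate numbers of the groups are all different. A gene value was counted only in alternatives where the gene was still tested. No called gene value changed sign under any alternative run. Of 3503 values of 189 gene results, 3334 stayed on their side of the threshold and 169 were lost. Never lost were 156 of the results, among them HIST1H3B with Ag2S NPs at 320 µg/mL, which was not tested after scaling. Those lost under 10 or more alternatives were HIST1H2BJ between the doses of Li-doped Ag2S NPs (13 of 22 alternatives), HIST1H2AM with Li-doped Ag2S NPs at 320 µg/mL against control (10 of 17), HIST4H4 with Ag2S NPs at 160 µg/mL against control (10 of 17) and the interaction of HIST1H2AI (10 of 21), and HIST1H4E with Ag2S NPs at 160 µg/mL against control was lost under 8 of 15. With a mean FPKM of at least 5, 13 genes were left in the fits of 1 dose and 11 in the joint fit. Of these, 12, 13, 13 and 12 had fallen against control with Ag2S NPs at 160 and 320 µg/mL and Li-doped Ag2S NPs at 160 and 320 µg/mL. The shares of all genes fallen were 27%, 40.3%, 44.3% and 47.9%. At 160 µg/mL 12 were lower with Li-doped than undoped NPs, beside 32.9% of all genes. With Li-doped NPs 9 were higher at 320 than at 160 µg/mL, beside 2053 of all 9143 genes tested. The interaction test was passed by 11, all above 0, beside 2157 of all 9143 genes above 0. Fitting only the groups compared left 21 genes and 16 were lower with Li-doped than undoped NPs at 160 µg/mL, beside 25.4% of all genes. With library weights 3 genes were lower with Li-doped than undoped NPs at 320 µg/mL, beside 23.3% of all genes, and the cause was not tested.

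Leaving out 1 library at a time, the genes that had fallen against control numbered 17 to 26 and 24 to 30 with Ag2S NPs at 160 and 320 µg/mL and 28 to 31 and 25 to 29 with Li-doped Ag2S NPs at 160 and 320 µg/mL. The shares of all genes fallen were 15.2% to 25.6% and 29.1% to 42% with Ag2S NPs at these doses. With Li-doped Ag2S NPs they were 36.2% to 42.9% and 39% to 44.8%. Members lower with Li-doped than undoped NPs at 160 µg/mL numbered 18 to 27, beside 25.5% to 30% of all genes. Members higher at 320 µg/mL numbered 7 to 9, beside 669 to 1322 of all genes. Between doses, members lower at 320 than at 160 µg/mL with Ag2S NPs numbered 11 to 14, beside 4.88% to 10% of all genes. Members higher with Li-doped NPs numbered 12 to 17, beside 2057 to 2456 of all genes. Members past the interaction test numbered 16 to 20, beside 2158 to 2444 of all genes above 0. Members lower with Li-doped than undoped NPs at 320 µg/mL, or lower at 320 than at 160 µg/mL with Li-doped NPs, numbered 0 to 1, with 1 in each where replicate 14 of Li-doped Ag2S NPs at 320 µg/mL was left out.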
